A study of Mus musculus with 12 samples.

Results

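Heat shock proteins and chaperones are described here through 10 genes: Hspa1a, Hspa1b, Hspa8, Hspa5, Hspb1, Hsph1, Dnaja1, Dnajb1, Hspd1 and Hspe1. They were measured in hearts and kidneys of mice without mENT1, the equilibrative nucleoside transporter encoded by Slc29a1, and of wild type mice. All mice were on the FVB/N background, and neither their age nor the kind of deletion is given in the sources used here. Total RNA of each sample was labelled with Cy3 and hybridised to 1 Agilent mouse array. Of the 4 groups 2 were hearts and 2 were kidneys, each tissue from mENT1 knockout and from wild type mice, and each group had 3 arrays lettered a, b and c. The members were found by gene name and synonym among the 41174 probes that were not controls, which name 27670 genes. In all 18 probes carried a member's name, and 9 of the 10 members had a probe of their own. The 10 genes were selected on measured values, namely the difference between knockout and wild type hearts, in which Hspa1a and Dnaja1 had passed the test. Values from that difference are therefore given as a description, without a test.

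Chaperones bind unfolded or newly made proteins and help them to fold. The HSP70 proteins, such as those of Hspa1a, Hspa1b and Hspa8, work in cycles of ATP binding, with J proteins (Dnaja1, Dnajb1) that deliver clients and exchange factors (Hsph1) that release the nucleotide. When unfolded protein accumulates in the cytosol, heat shock factors bind heat shock elements in the promoters of such genes, whereas Hspa5 answers to unfolded protein in the endoplasmic reticulum. Hspb1 is a small heat shock protein that is abundant in muscle, and Hspd1 with Hspe1 forms the folding chamber of mitochondria.

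The promoter stretches of members are shown first, because they set apart the genes that share a control region from those that do not. They come from RefSeq promoters of build GRCm38.p6, found for 9 of the 10 members, and were searched over the 250 bases before the start site on both strands. A heat shock element was taken as 3 units, GAA and TTC in turn with 2 bases between them. It was present in 2 members, Hspd1 and Hspe1, and in 153 of all 32851 promoters (0.466%), or 0.514% of genes. A gene counts when any of its promoters holds the motif, and another promoter of Hspd1 held none. The same 30 bases serve both genes, which lie head to head on chromosome 1 (chr1:55088053-55088082). They are printed once on the strand of each gene, with 2 overlapping elements in capitals.
Hspd1 (minus strand): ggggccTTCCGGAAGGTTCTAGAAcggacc
Hspe1 (plus strand): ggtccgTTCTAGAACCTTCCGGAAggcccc

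The stress element of the endoplasmic reticulum is CCAAT followed after 9 bases by CCACG. This element was present in Hspa5 alone among the members and in 37 of all promoters (0.113%), or 0.130% of genes. It is in capitals in the stretch from 80 to 32 bases before the start (chr2:34772010-34772058, plus strand).
Hspa5: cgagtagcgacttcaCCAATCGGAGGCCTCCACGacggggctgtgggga

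A shorter motif of 2 units, GAA and TTC in either order with 2 bases between them, was searched after the longer one had been found in so few members. It was present in 7 of the 9 members, against 14.5% of all genes and 12.8% of all promoters, and every longer element also holds it. The other promoters of Dnaja1 held none. In capitals it is shown for the inducible HSP70 pair on the minus strand of chromosome 17 (chr17:34972238-34972275 and chr17:34959320-34959357), for Hsph1 (chr5:149636347-149636384, minus strand), for Dnaja1 (chr4:40722329-40722366, plus strand) and for Hspb1 (chr5:135887787-135887844, plus strand).
Hspa1a: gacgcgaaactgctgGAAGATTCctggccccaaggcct
Hspa1b: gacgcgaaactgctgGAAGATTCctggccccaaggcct
Hsph1: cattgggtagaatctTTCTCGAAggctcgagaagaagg
Dnaja1: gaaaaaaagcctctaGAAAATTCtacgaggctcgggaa
Hspb1: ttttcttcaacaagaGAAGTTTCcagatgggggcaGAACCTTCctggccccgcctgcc
The Hspa1a and Hspa1b stretches are the same, and 247 of the 250 bases before the start are equal in the pair. A match describes these letters and is not a binding site, and no member's promoter was tested here for activity.

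Hspa1a and Hspa1b, the stress-inducible HSP70 genes, also share most of their transcript, and this limits what their probes measure. Hspa1b had no probe of its own. Of 4 probes named Hspa1a, 2 list transcripts of both genes, and their sequences lie in the coding part.
A_52_P304902: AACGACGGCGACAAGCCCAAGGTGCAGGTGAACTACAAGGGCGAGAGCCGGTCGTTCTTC
A_52_P52803: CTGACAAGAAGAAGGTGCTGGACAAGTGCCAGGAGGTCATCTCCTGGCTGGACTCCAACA
The other pair, A_51_P117952 and A_52_P82741, lists Hspa1a alone and overlaps by 30 bases, so these probes are not independent measurements.
Stretch held by A_51_P117952 and A_52_P82741: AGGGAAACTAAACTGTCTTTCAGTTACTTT
In the files, whose positions are those of build mm7, A_51_P117952 lies at 33066941 to 33067000 and A_52_P52803 at 33067263 to 33067322 of chromosome 17. In build GRCm38.p6 Hspa1a spans 34969359 to 34972156 of that chromosome. Hspa1b lies 10120 bases away, Hspa1l 546 bases on the other side, and Slc29a1 at a distance of 10.6 megabases. The other members lie on other chromosomes.

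Levels below are log2 signals relative to the 75th percentile of each array, which ran from 464 to 940.4 intensity units, and a level of one probe is not set against that of another. Differences are knockout minus wild type or heart minus kidney, with the standard error (SE) of a limma fit on 3 arrays against 3. Adjustment ran over all genes tested, and an adjusted p under 0.05 made a call. Slc29a1 itself lay between 0.59 and 1.53 on knockout hearts, below 3.15 to 3.36 on wild type hearts, and between -1.43 and -1.30 on knockout kidneys, below 1.27 to 1.62 on wild type kidneys. The labels of the scanner files were kept because of this fall, so all directions rest on it, since the columns of the deposited value table follow the arrays of the other genotype. The 8 cardiomyocyte markers had a summed level of 8.98 or more on every heart and of -1.30 or less on every kidney, and the 8 kidney tubule markers of 9.0 or more on every kidney and of -0.04 or less on every heart. Xist signal was present on knockout hearts a and b and knockout kidney a and on no other array. Of Xist and the Y-linked genes, 5 in all, 1 was above background on each of these arrays and 4 on every other array. Every wild type array thus had a male pattern. The knockouts of each tissue included a female pattern, so sex is partly confounded with genotype. The knockout hearts were all on one slide and the wild type hearts all on another, so in heart the slide cannot be told apart from the genotype. The series text gives 3 mice per genotype but not which heart and kidney share a mouse. Among knockouts the Xist signal falls on hearts a and b but only on kidney a. The knockout hearts and kidneys therefore cannot all be matched within the same 3 mice.

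In heart 4 members stood higher on every knockout array than on every wild type array, namely Hspa1a, Dnaja1, Dnajb1 and Hsph1, whereas Hspa8, the constitutive HSP70, overlapped. Hspa1a had levels of 1.76, 1.47 and 1.97 on the knockout hearts (a, b, c in this order throughout) and of 0.33, 0.04 and 0.17 on wild type hearts. Every knockout heart lay above every wild type heart. The difference was 1.55 ± 0.17 (SE, n = 3 and 3), a signal 2.93-fold higher. In bulk tissue such a difference can come from the make-up of the cells as well as from the RNA per cell, and the arrays cannot tell these apart.

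All 4 Hspa1a probes separated the hearts in the same direction, as the plot of its probes by array shows. The probe A_52_P82741 gave 1.51 ± 0.18, and the pair that also lists Hspa1b gave 1.26 ± 0.16 (A_52_P52803) and 1.20 ± 0.24 (A_52_P304902). On A_52_P52803 the knockout hearts were at 0.27, -0.10 and 0.40 and the wild type hearts at -1.07, -1.11 and -1.03. On all 4 probes knockout heart b was the lowest of the knockouts and still above each wild type heart.

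**Figure D1:**
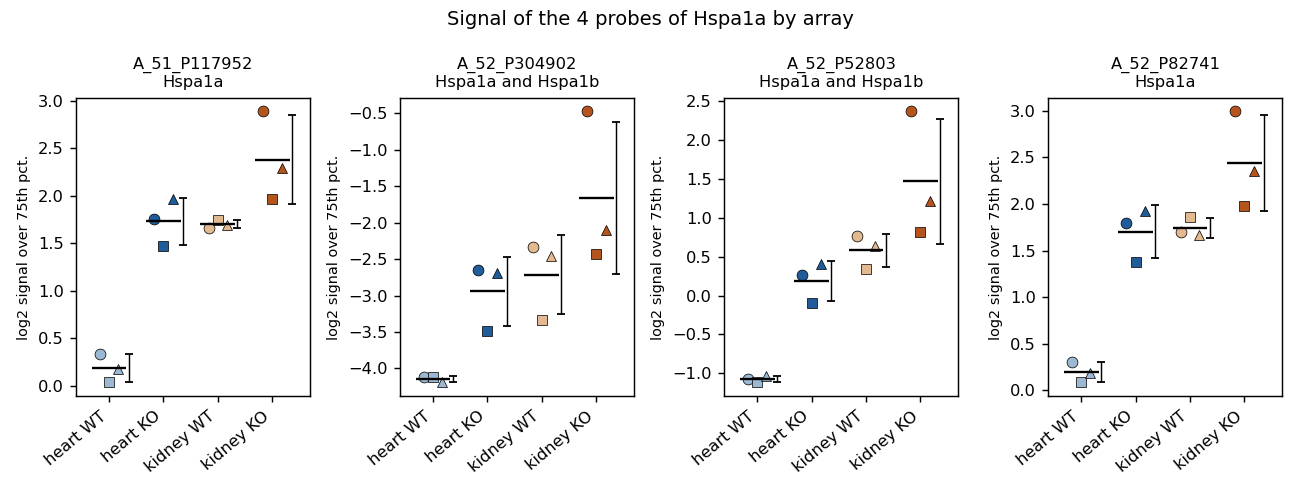
Log2 signal relative to the 75th percentile (vertical axis, a scale per panel) of the 4 probes named Hspa1a in the 4 groups (horizontal axis), with arrays a, b and c as circles, squares and triangles, the mean as a line and the SD as a bar. Wild type hearts (WT) lie below knockout hearts (KO) on every probe, and knockout kidney a is the highest array on every probe.

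Both J proteins stood higher in knockout hearts as well. Dnaja1, which works with HSP70 in the cytosol, was at 4.53, 4.58 and 4.39 on knockout hearts and at 3.59, 3.52 and 3.57 on wild type hearts. The groups did not overlap, and the difference was 0.94 ± 0.12 (SE, n = 3 and 3), 1.92-fold. Its other probes gave 0.58 ± 0.13 and 1.06 ± 0.20, again with no overlap.

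Dnajb1, the J protein known as HSP40, was at 4.48, 4.87 and 4.47 on knockout hearts and at 3.84, 3.91 and 3.89 on wild type hearts. The knockouts were all higher, by 0.72 ± 0.16 (SE, n = 3 and 3) or 1.65-fold, and by 0.81 ± 0.22 on its second probe. Hsph1, the HSP110 exchange factor, was at 3.73, 3.19 and 3.56 on knockout hearts and at 2.72, 2.82 and 3.16 on wild type hearts. Knockout heart b and wild type heart c nearly met, and the difference was 0.59 ± 0.20 (SE, n = 3 and 3), 1.51-fold.

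The remaining 5 members overlapped between the heart groups. Hspa8 was at 5.77, 5.98 and 6.28 on knockout hearts and at 5.64, 5.62 and 6.26 on wild type hearts, a difference of 0.17 ± 0.23, and its other probe gave 0.02 ± 0.15. The files place both of its probes on chromosome 5 of build mm7, while RefSeq places the gene on chromosome 9 of GRCm38.p6, so signal from a related copy cannot be set apart. Hspa5, the HSP70 of the endoplasmic reticulum, was at 5.36, 5.27 and 5.56 on knockout hearts and at 5.04, 5.0 and 5.38 on wild type hearts (0.25 ± 0.16). Only wild type heart c reached into the range of the knockouts.

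The small heat shock protein gene Hspb1 was at 5.25, 5.35 and 5.90 on knockout hearts and at 5.22, 5.47 and 6.0 on wild type hearts (-0.06 ± 0.27). Each letter had nearly the same level in both genotypes. A further probe labelled Hspb1 lies on chromosome 13 in the files, apart from the gene on chromosome 5. It was well above background on 3 of 12 arrays and was not used.

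The mitochondrial pair did not separate the heart groups either. Hspd1, the HSP60 chaperonin, was at 5.53, 5.34 and 5.68 on knockout hearts and at 5.43, 5.38 and 5.67 on wild type hearts (0.03 ± 0.16). Hspe1, its HSP10 lid, was at 4.07, 3.83 and 4.41 on knockout hearts and at 3.95, 3.87 and 3.99 on wild type hearts (0.16 ± 0.18). Their shared promoter holds the exact heat shock elements shown above. A link between such an element and the level of a gene was not tested, and inexact elements were not searched.

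Counted over the 9 members tested in heart, 8 lay above 0 and 1 below, with a median difference of 0.25 against -0.07 over all 17482 genes. The 4 members named first did not overlap upward, where 9.14% of all genes did, and 0 members did so downward, where 13% of all genes did. Limma called 2 members, Hspa1a and Dnaja1, where it called 0.664% of all genes. Nothing is read from these counts, since the members were selected with this contrast known. With the letters of the hearts as a replicate block limma called 0 members and 55 genes in all. The count was 0 without knockout heart a or wild type heart a, b or c, 1 without knockout heart b and 3 without knockout heart c. The size of the difference depended less on single arrays: over 19 alternatives Hspa1a ran from 1.20 to 1.78 and Dnaja1 from 0.77 to 1.07.

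**Figure D2:**
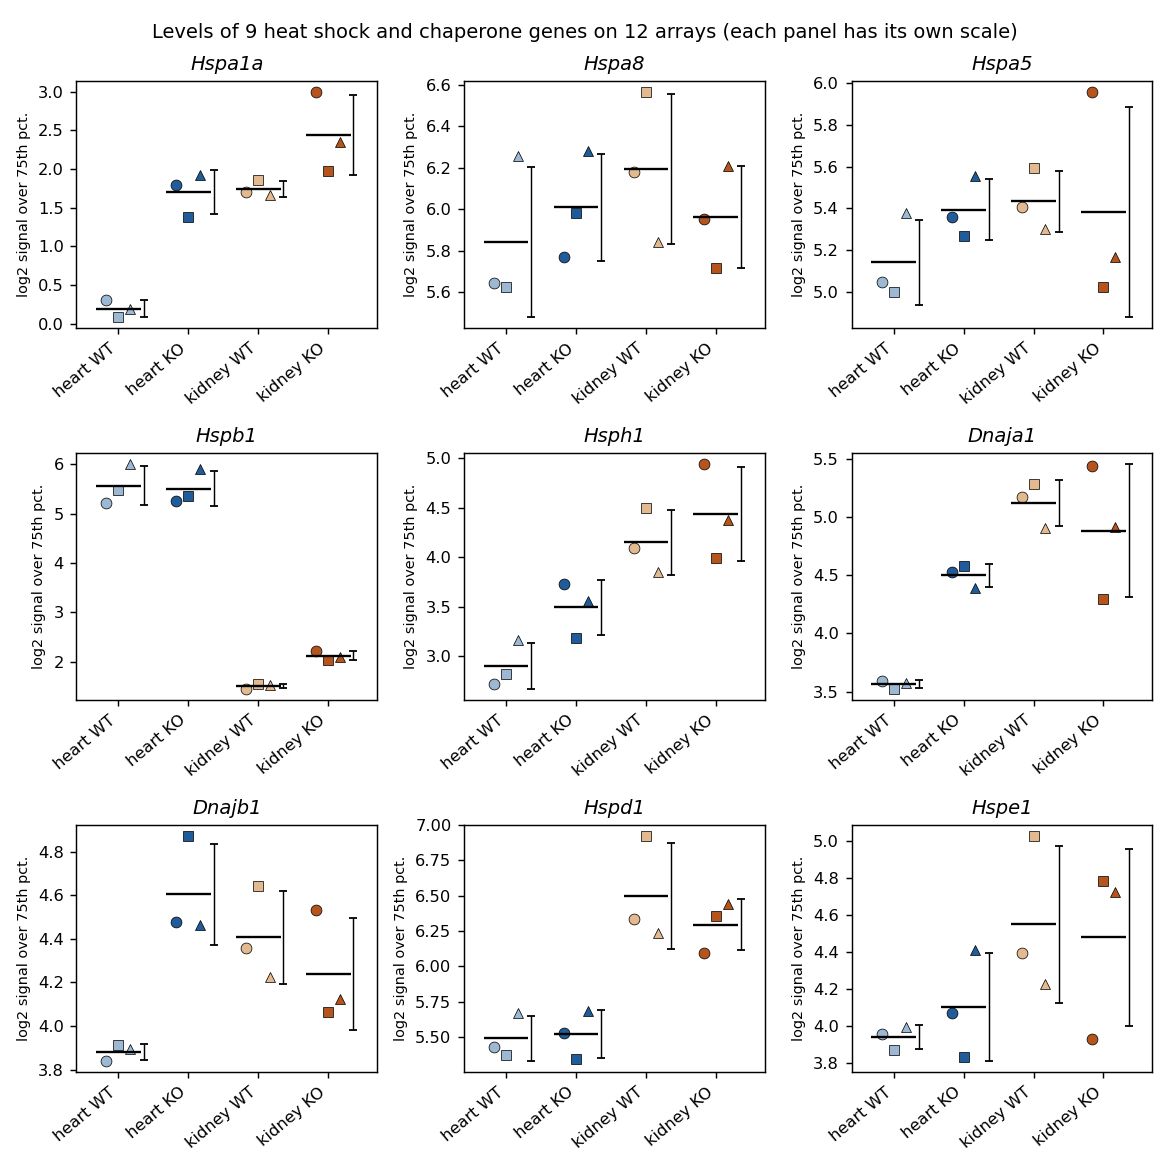
Log2 signal relative to the 75th percentile (vertical axis, a scale per panel) of 9 members in wild type (WT) and knockout (KO) hearts and kidneys (horizontal axis), with arrays a, b and c as circles, squares and triangles, the mean as a line and the SD as a bar, for the probe with the highest mean over all 12 arrays. Hspa1a, Hsph1, Dnaja1 and Dnajb1 separate the heart genotypes, and Hspb1 separates heart from kidney.

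Markers of other cell types moved with genotype among the hearts, and these are the lists, apart from sex-linked genes, whose ranges did not overlap. The 10 hepatocyte markers had a summed level of 2.03 to 2.83 on knockout hearts and of -1.78 to -0.51 on wild type hearts. Of them 9 were well above background on each knockout heart and 5 to 8 on the wild type hearts. The 14 thymocyte and lymphocyte markers ran from 2.60 to 7.98 on knockout hearts and from 1.65 to 2.52 on wild type hearts, with 12 to 14 and 12 above background. The 8 cell cycle genes ran from 2.03 to 5.34 and from 1.48 to 1.92. Endothelial markers (5.44 to 6.04 against 6.09 to 6.11) and clock genes (5.12 to 6.14 against 6.32 to 6.51) were lower on the knockout hearts. Markers of lung and airway stood at 8.48 on knockout heart a and between -0.96 and 2.20 on the other hearts. The part of these differences in the levels of the heat shock genes was not tested. On knockout heart c, which carries no Xist signal, Hspa1a was the highest and Dnaja1 the lowest of the knockouts. With that array as the only knockout, assumed to vary like the wild types, the differences were 1.78 for Hspa1a and 0.83 for Dnaja1.

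In kidney no member was called, and 2 members had knockouts that all lay above the wild types. Hspb1 was at 2.22, 2.04 and 2.10 on knockout kidneys a, b and c and at 1.46, 1.54 and 1.52 on wild type kidneys. Both groups were tight and far apart. The difference of 0.61 ± 0.14 (SE, n = 3 and 3), 1.53-fold, had an adjusted p of 0.145 in limma and was above 0 in each of 21 alternatives. On the slide that held knockout kidneys b and c and wild type kidneys a and b it was 0.57 (adjusted p of 0.157 in limma), and with the slide as a block 0.57 (0.151).

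Hspa1a was at 2.99, 1.98 and 2.35 on knockout kidneys and at 1.70, 1.86 and 1.67 on wild type kidneys. Knockout kidney a, the kidney with Xist signal, stood highest, and knockout kidney b was close to wild type kidney b. The difference was 0.70 ± 0.27 (SE, n = 3 and 3), 1.62-fold, with an adjusted p of 0.338 in limma. Without knockout kidney a it was 0.42 (adjusted p of 0.283 in limma) and within the slide 0.38 (adjusted p of 0.351 in limma). The coding probes gave 0.89 ± 0.40 (A_52_P52803) and 1.05 ± 0.54 (A_52_P304902), and on A_52_P304902 the kidney groups overlapped.

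The J proteins and the exchange factor overlapped between the kidney groups. Dnaja1 was at 5.44, 4.30 and 4.91 on knockout kidneys and at 5.18, 5.29 and 4.90 on wild type kidneys, a difference of -0.24 ± 0.30 with an adjusted p of 0.760 in limma. Dnajb1 was at 4.53, 4.06 and 4.12 on knockout kidneys and at 4.36, 4.64 and 4.22 on wild type kidneys (-0.17 ± 0.20, adjusted p of 0.747 in limma). Its second probe gave 0.06 ± 0.23. Hsph1 was at 4.94, 4.0 and 4.38 on knockout kidneys and at 4.10, 4.50 and 3.85 on wild type kidneys (0.29 ± 0.29, adjusted p of 0.698 in limma). In each of these genes knockout kidney a was highest and b lowest of the knockouts. Within the slide Dnaja1 was at -0.63 and Dnajb1 at -0.41, and Hsph1 changed sign to -0.11, each with an adjusted p of 0.238 or more in limma.

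The members of the endoplasmic reticulum and of mitochondria overlapped as well. Hspa5 was at 5.96, 5.02 and 5.16 on knockout kidneys and at 5.41, 5.59 and 5.30 on wild type kidneys (-0.05 ± 0.27, adjusted p of 0.949 in limma). Knockout kidney a was again the highest and b the lowest of all kidneys. Hspa8 was at 5.95, 5.72 and 6.21 on knockout kidneys and at 6.18, 6.57 and 5.84 on wild type kidneys (-0.23 ± 0.24, adjusted p of 0.699 in limma). Hspe1 was at 3.93, 4.78 and 4.73 on knockout kidneys and at 4.39, 5.03 and 4.22 on wild type kidneys (-0.07 ± 0.32, adjusted p of 0.941 in limma), with knockout kidney a here the lowest. The brighter Hspd1 probe was saturated on all 6 kidneys and gives no fold there. Its other probe, A_52_P1172972, was at 3.95, 3.86 and 3.90 on knockout kidneys and at 3.86, 4.05 and 3.56 on wild type kidneys, a difference of 0.08 ± 0.17 with an adjusted p of 0.871 in limma.

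Of the 9 members tested in kidney 3 lay above 0 and 6 below with the probes of the highest mean, and the median was -0.07, as over all 17227 genes (-0.07). Limma called 0 members and 0.163% of all genes. An unadjusted p under 0.05 in limma was found for 2 members (Hspa1a and Hspb1), against 13.2% of all genes. The share of members with all knockouts above the wild types was 2 of 9, against 8.71% of all genes, and 0 of 9 lay below, against 12.5% of all genes. Of the marker lists, that of the cell cycle and that of sex-linked genes did not overlap between the kidney groups. The 8 cell cycle genes had a summed level of -0.63 to -0.18 on knockouts and of 0.38 to 1.28 on wild types. Immediate early genes (2.57 to 3.90 and 3.74 to 4.23), clock genes (3.69 to 6.42 and 6.38 to 7.01) and hepatocyte markers (2.51 to 3.47 and 2.38 to 3.06) overlapped. The part of these lists in the members' values was not tested.

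**Figure D3:**
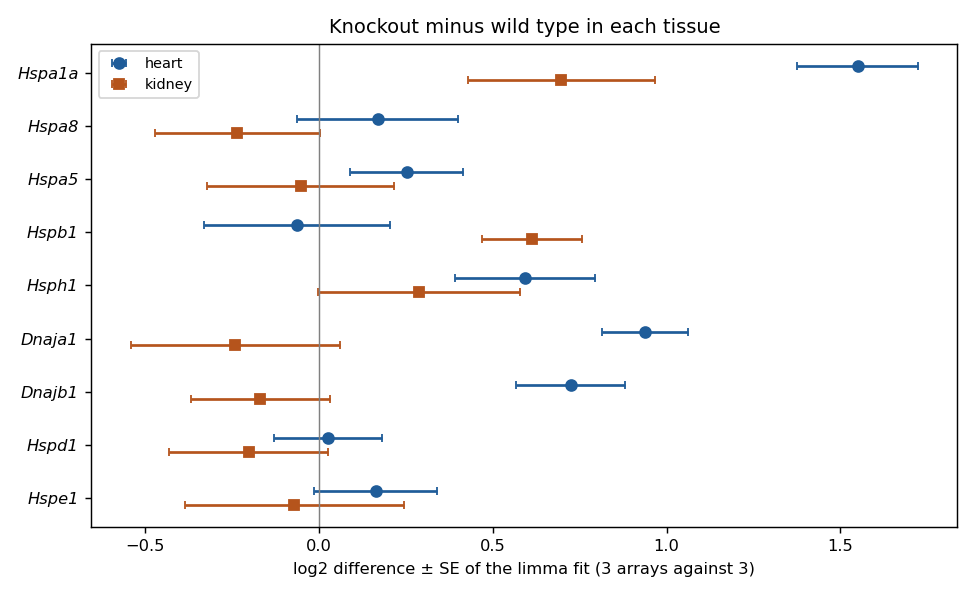
Knockout minus wild type difference on the log2 scale (horizontal axis) of 9 members (vertical axis) in heart (blue circles) and kidney (orange squares), with the SE of the limma fit on 3 arrays against 3 as bars. Hspa1a, Dnaja1, Dnajb1 and Hsph1 lie farthest to the right in heart, and Hspa1a and Hspb1 in kidney. The plotted Hspd1 kidney value is from a saturated probe.

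The difference between the tissues' genotype effects contains the heart contrast and is given as a description. It was 1.18 ± 0.34 for Dnaja1, 0.89 ± 0.25 for Dnajb1 and 0.81 ± 0.34 for Hspa1a (A_52_P82741), heart effect minus kidney effect. For Hspa1a A_51_P117952 gave 0.87 ± 0.32, and the coding probes gave 0.37 ± 0.47 (A_52_P52803) and 0.15 ± 0.66 (A_52_P304902). The other Dnaja1 probes gave 0.95 ± 0.40 and 1.45 ± 0.43, and the second Dnajb1 probe gave 0.75 ± 0.33. For Hspb1 the heart effect minus the kidney effect was -0.68 ± 0.31, the only value of the 9 members below 0 on the probes of the highest mean. The Hspd1 probe among these was saturated in kidney, and the unsaturated Hspd1 probe gave -0.15 ± 0.27. Limma called 0 of the 9 members and 0.632% of all 18501 genes. An unadjusted p under 0.05 in limma was found for 3 members, against 14.6% of all genes. Without knockout kidney a the count of called members was 1.

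Between the tissues Hspb1 had the largest difference of the members. In wild types its level was 5.56 ± 0.40 (SD, n = 3) in heart and 1.51 ± 0.05 (SD, n = 3) in kidney. Heart exceeded kidney by 4.06 ± 0.21 (SE, n = 3 and 3), 16.6-fold, with an adjusted p of 3.0e-06 in limma. In knockouts the excess was 3.38 ± 0.22, 10.4-fold, with an adjusted p of 6.5e-05 in limma. Both comparisons kept the call in every alternative run (16 and 17). Within a genotype no slide held both hearts and kidneys. In every comparison between the tissues the slide therefore cannot be told apart from the tissue, and no alternative covered it.

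The other called members were lower in heart than in kidney. Among wild types Hspd1, saturated in kidney, was at least 2.01-fold lower in heart (-1.0 ± 0.21, adjusted p of 0.0044 in limma), and its unsaturated probe gave -1.04 ± 0.17. Hspe1 was 1.53-fold lower (-0.61 ± 0.22, adjusted p of 0.044 in limma). Both heart groups lay wholly below the kidney groups.

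The Hspe1 call rested on single arrays. It ended without wild type heart a (adjusted p of 0.0921 in limma), b (0.117) or c (0.0864), without wild type kidney a (0.0622), with no filter (0.0921), with the letters as a block (0.0608) and with all 12 arrays in 1 fit (0.0761). The 4 members that separated the heart genotypes are given as a description between the tissues, since their heart arrays entered the choice of the genes. In wild types they were lower in heart than in kidney by 1.55 ± 0.14 (Hspa1a), 1.56 ± 0.15 (Dnaja1), 1.25 ± 0.21 (Hsph1) and 0.53 ± 0.15 (Dnajb1), with no overlap. The other Dnaja1 probes gave -2.04 ± 0.20 and -2.23 ± 0.16, and the second Dnajb1 probe gave -0.71 ± 0.17. Hspa8 (-0.35 ± 0.25, adjusted p of 0.254 in limma) and Hspa5 (-0.29 ± 0.16, adjusted p of 0.152 in limma) were not called.

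In knockouts Hspd1 was lower in heart than in kidney by 0.78 ± 0.18, at least 1.71-fold (adjusted p of 0.012 in limma), and its unsaturated probe gave -1.19 ± 0.21, or 2.28-fold lower. The call ended without knockout kidney b (adjusted p of 0.0521 in limma) or c (0.0551) and with normexp (0.370). Hspe1 (-0.38 ± 0.30), Hspa8 (0.05 ± 0.22) and Hspa5 (0.01 ± 0.28) had an adjusted p of 0.322 or more in limma, and Hspa8 and Hspa5 changed sign when arrays were centred on the median. As a description, Hsph1 was at -0.95 ± 0.29, Hspa1a at -0.74 ± 0.31, Dnaja1 at -0.38 ± 0.30 and Dnajb1 at 0.37 ± 0.21. Other probes differed in size. Hspa1a was at -0.65 ± 0.28 on A_51_P117952, -1.28 ± 0.41 on A_52_P52803 and -1.28 ± 0.54 on A_52_P304902. The other Dnaja1 probes gave -1.09 ± 0.32 and -0.78 ± 0.38, and the second Dnajb1 probe gave 0.04 ± 0.28.

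Of the 5 other members 1 was called higher and 2 lower in heart between the wild type tissues, where 64.5% of all 17983 genes were called. In knockouts 1 was called higher and 1 lower, where 53.6% of all 18169 genes were called. A call between heart and kidney was thus common among all genes. Over all 9 members limma called 7 in wild types and 3 in knockouts, which is a description for the reason given. The median member difference was -0.61 in wild types and -0.38 in knockouts, against 0.07 and 0.10 over all genes. The wild type and knockout comparisons share no array.

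**Figure D4:**
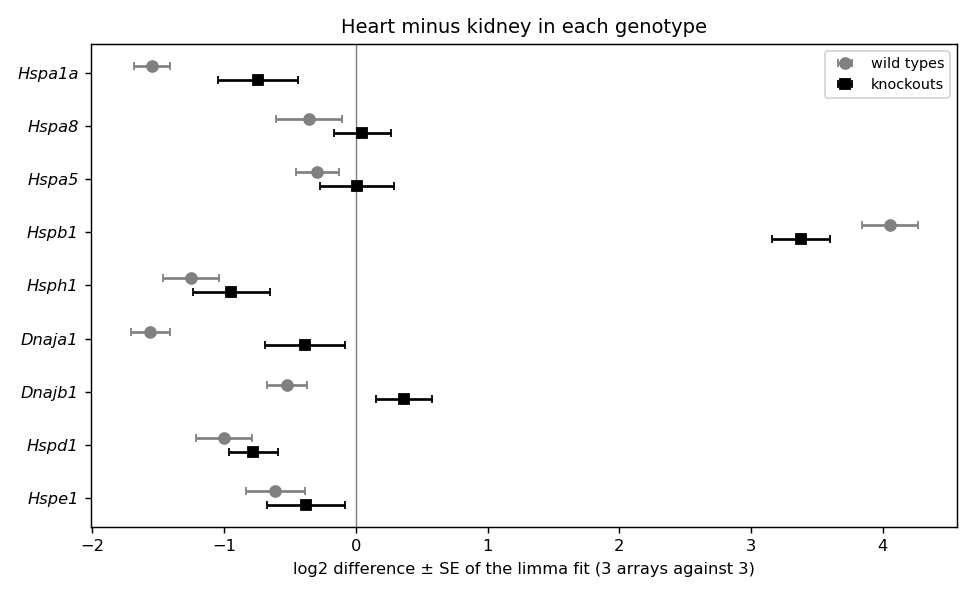
Heart minus kidney difference on the log2 scale (horizontal axis) of 9 members (vertical axis) in wild types (grey circles) and knockouts (black squares), with the SE of the limma fit on 3 arrays against 3 as bars. Hspb1 lies at 4.06 and 3.38, while Hsph1 and Hspd1 lie below 0 in both genotypes. The Hspd1 points are bounds, because the probe was saturated in kidney.

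The genes whose pattern was most like that of Hspa1a were sought among 13840 genes over the 12 arrays, after the mean of each tissue had been subtracted. The measure was Pearson's r, given as a description over arrays that share genotype, slide and scaling. The nearest were Car2, a carbonic anhydrase (0.979), Gltpd2, named for a glycolipid transfer domain (0.946), Fabp1, the fatty acid binding protein of liver (0.942), Hpd, an enzyme of tyrosine breakdown (0.939), and Slc27a5, an enzyme that activates bile acids (0.933). Car2 was at 0.77, 0.60 and 0.89 on knockout hearts and at -0.20, -0.32 and -0.40 on wild type hearts. On kidneys it was at 5.46, 4.94 and 5.02 in knockouts and at 4.83, 4.94 and 4.79 in wild types. As with Hspa1a, every knockout heart was above every wild type heart, and knockout kidney a was the highest kidney.

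None of the 5 nearest genes was a member. Hsph1 came nearest among the members, at rank 61 (0.837), followed by Dnaja1 at rank 169 (0.751), Dnajb1 at 318 (0.682) and Hspa5 at 661 (0.579). Hspb1 (0.290), Hspa8 (0.163), Hspe1 (0.035) and Hspd1 (-0.082) came far behind. Within the 6 kidneys r was 0.851 for Hsph1 and 0.857 for Hspb1 but 0.350 for Dnaja1 and 0.210 for Dnajb1.

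Beyond the members, 113 genes of 8 chaperone lists were examined, and 112 of them were tested in heart. Limma called 0 there, with 18 (16.1%) at an unadjusted p under 0.05 against 15.7% of all genes, and the median difference was -0.08 against -0.07 over all genes. Of the 112 genes 20 did not overlap upward (17.9%, against 9.14% of all genes) and 7 downward (6.25%, against 13%). In kidney limma called 0 of 111, with 8 (7.21%) at an unadjusted p under 0.05 against 13.2% of all genes. There 12 did not overlap upward (10.8%, against 8.71%) and 8 downward (7.21%, against 12.5%). In the wild types 25 of 112 were called higher in heart and 35 were called lower, in all 53.6% against 64.5% of all genes. In the knockouts 21 were called higher and 23 were called lower, in all 39.3% against 53.6% of all genes. For the heart effect minus the kidney effect limma called 0 of 112, with 15 (13.4%) at an unadjusted p under 0.05 against 14.6% of all genes. These shares describe the lists and no test of a list was made.

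The endoplasmic reticulum list held the most non-overlapping genes in heart, 8 of 18 upward (44.4%, against 9.14% of all genes) and 1 downward (5.56%, against 13%), with a median of 0.20 and 12 above 0. Sdf2l1, a partner of Hspa5 in that compartment, differed by 0.98 ± 0.14 and Creld2, a stress-induced protein of the same compartment, by 0.73 ± 0.14. Trib3, a pseudokinase of the stress response, was at -0.41 ± 0.13. In kidney 5 of the 18 lay above 0. There 1 did not overlap upward (5.56%, against 8.71% of all genes) and 4 downward (22.2%, against 12.5%). The upward gene was again Sdf2l1, at 1.81, 1.45 and 1.98 on knockout kidneys and at 0.76, 0.36 and 0.68 on wild type kidneys. Between the wild type tissues 10 of the 18 were called lower and 2 called higher in heart, in all 66.7% against 64.5% of all genes. Edem1, which marks misfolded glycoproteins for disposal, was lower (-2.06 ± 0.16, adjusted p of 2.1e-05 in limma), as was P4hb, a disulfide isomerase (-1.32 ± 0.14). Trib3 was 6.48-fold and Ddit3, a stress transcription factor, 2.62-fold higher.

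Among the 19 other genes of the HSP70 system, Hspa1l, the testis-type HSP70 next to Hspa1a, had the largest upward difference without overlap in heart. It was at -1.63, -1.40 and -0.84 on knockout hearts and at -2.86, -2.45 and -2.12 on wild type hearts, 1.19 ± 0.27. Hyou1, an HSP70 relative of the endoplasmic reticulum, was at 0.52 ± 0.19, Hspa2 at -0.46 ± 0.18 and Bag5 at -0.11 ± 0.13. Of the 19 genes 3 did not overlap upward (15.8%, against 9.14% of all genes) and 2 downward (10.5%, against 13%). The list as a whole had 6 above 0 and 13 below with a median of -0.12. Between the wild type tissues 5 were called higher and 6 called lower in heart, in all 57.9% against 64.5% of all genes. Hspa12b, an HSP70 relative of endothelial cells, was 12.3-fold higher and Bag4, an exchange factor, 2.48-fold lower.

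The HSP90 list had 11 of 16 genes above 0 in heart with a median of 0.15. Of these 16 genes 3 did not overlap upward (18.8%, against 9.14% of all genes) and 1 downward (6.25%, against 13%). Chordc1, a cochaperone of HSP90, was at 0.54 ± 0.13, Hsp90aa1, the inducible HSP90, at 0.44 ± 0.14 and Trap1, the mitochondrial HSP90, at -0.42 ± 0.19. In kidney 9 of 16 lay above 0 with a median of 0.12. Unc45b, the myosin chaperone of muscle, was 20.3-fold higher in wild type heart than kidney (4.34 ± 0.18, adjusted p of 9.3e-07 in limma).

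The small heat shock proteins other than Hspb1 had the largest median difference between the tissues among the lists. All 7 were called between the wild type tissues (100%, against 64.5% of all genes), 6 of them higher in heart with a list median of 5.54. Hspb7, the cardiovascular small heat shock protein, was higher by 10.92 ± 0.31 and Hspb6, which is abundant in muscle, by 7.46 ± 0.24. Cryaa, the lens crystallin, was 3.21-fold lower in heart on A_51_P305956. On its other probe, A_51_P305950, wild type hearts were not well above background, and the signal was at least 16.0-fold lower than in kidney. By genotype 6 of the 7 lay below 0 in heart with a median of -0.53, from -0.76 (Hspb6) to 0.22 (Cryaa on A_51_P305956). All overlapped on these probes, where 9.14% of all genes did not overlap upward and 13% downward. The Cryaa probes disagreed, since on A_51_P305950 the knockout hearts were at -4.36, -4.81 and -4.71, all well above background, and the wild type hearts at -6.67, -7.63 and -7.51, none of them above it. That signal was at least 4.18-fold higher in knockouts. In kidney 5 of 6 lay above 0 with a median of 0.34. Cryab (0.69 ± 0.19, adjusted p of 0.209 in limma) and Hspb2 (0.34 ± 0.14, 0.390) did not overlap upward (33.3%, against 8.71% of all genes), as was the case for Hspb1.

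The other lists had medians from -0.24 to 0.04 by genotype in heart. Of 19 other J proteins 4 lay above 0 in heart (median -0.11). Among them 2 did not overlap upward (10.5%, against 9.14% of all genes) and 1 downward (5.26%, against 13%). Dnajc3 (0.38 ± 0.13) and Dnajb11 (0.27 ± 0.13), both of the endoplasmic reticulum, were upward and Dnajc1 (-0.22 ± 0.14) downward. The TRiC chaperonin and prefoldin list had a median of 0.04, with Pfdn6 at 0.57 ± 0.16, Pfdn4 at 0.48 ± 0.15 and Pfdn2 at -0.17 ± 0.13. Of its 14 genes 3 did not overlap upward (21.4%) and 1 downward (7.14%). Mitochondrial chaperones and proteases had 1 of 10 above 0 in heart (median -0.24), none without overlap, against 9.14% of all genes upward and 13% downward. Among 9 heat shock factors and regulators the median was -0.10, with Serpinh1, the collagen chaperone HSP47, at 0.44 ± 0.19 and Hsf4, a heat shock factor best known from lens, at -0.79 ± 0.22. In kidney the medians of these lists ran from -0.12 to -0.07.

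Between the tissues the same lists were divided. Dnajb5, a J protein, was 13.2-fold higher in wild type heart than kidney and Dnajb12, which sits in the endoplasmic reticulum membrane, 2.07-fold lower. Grpel2, an exchange factor of the mitochondrial HSP70, was 2.80-fold lower in heart and Cct6a, a TRiC subunit, 1.65-fold lower. Hsf4 was 4.0-fold higher in heart, with 2 of 3 kidney arrays above background, and Serpinh1 2.49-fold higher. Hspbap1, named for its binding to the Hspb1 protein, was 5.82-fold lower.

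**Figure D5:**
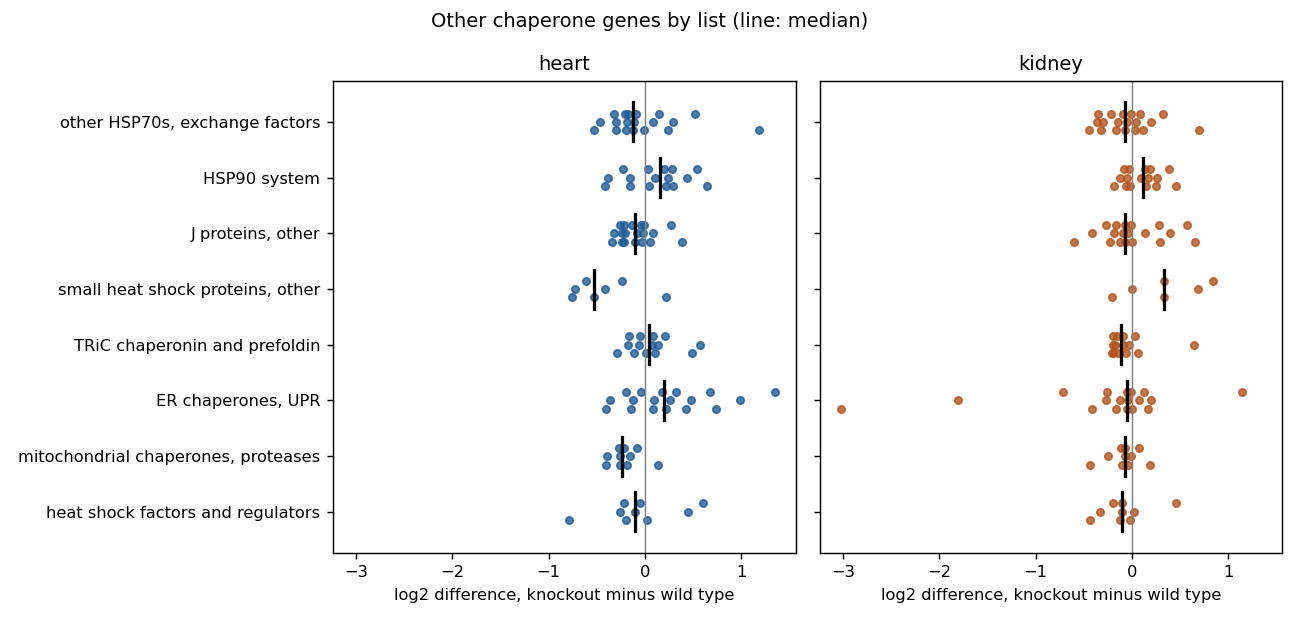
Knockout minus wild type difference on the log2 scale (horizontal axis) of the genes of 8 chaperone lists (vertical axis) in heart (left) and kidney (right), each gene a point and the median a line. Medians lie between -0.53 and 0.20 in heart and between -0.12 and 0.34 in kidney.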

How the data were processed

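Per the file headers, the 12 deposited scanner files give spot intensity from version 9.5.3.1 of Agilent's Feature Extraction, where the submitters' processing notes name 9.1. A further table holds the authors' log2 values, whose scaling and centring are not given in the sources used here. Each of its 12 columns follows an array of the other genotype, with letter and tissue equal (correlation across probes of 1.000, against -0.270 to -0.056 with its own name), so it served only as an alternative with columns matched to arrays. From the log2 of each processed signal its array's 75th percentile was subtracted. Spots flagged as non-uniform or as outliers were left out, and replicate spots were averaged. Genes were tested with limma 3.58.1 in R 4.3.3 when a probe was well above background on every array of at least 1 group, 1 probe per gene (the highest mean over the arrays of the comparison), with Benjamini-Hochberg adjustment over all genes. For Hspa1a that is A_51_P117952 in heart and A_52_P82741 elsewhere. The fit was tested on simulated data.

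Probe names were updated through RefSeq in 22951 cases from the accession, in 6659 from the symbol and in 3109 from a synonym, and 8455 probes kept the name in the files. Files give positions in build mm7, and promoters are of GRCm38.p6. The members and lists were chosen with earlier results of these data known. By rule all members were named, and of the other genes up to 2 per list, comparison and direction (smallest adjusted p among called genes, and in heart the largest difference without overlap). Outside this rule, Sdf2l1, Cryab and Hspb2 were named in kidney for their lack of overlap, since no listed gene was called there. A signal that was saturated on all arrays of the brighter group gives a lower bound of the fold. The sum of a marker list is the log2 of its summed signals. The letters deviate together in heart, with correlations of 0.357, 0.178 and 0.240 between knockout and wild type arrays of one letter. The hearts may thus be paired by letter, which rests on this check and not on the labels. Arrays of one letter are from different mice across the genotypes. The SE printed for heart and its main calls are from the fit without the letters, and the replicate block was run as an alternative. The number of arrays limits the precision of every value.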

Additional observations from a re-analysis of the deposited data

How the results depend on the processing

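Counts of called members are a description here, since the members were selected with the heart contrast known. In heart the count of called members was 2. It was 1 with quantile normalization, arrays centred on the median, normexp background correction, a filter on every array, the mean of all probes of a gene, all 12 arrays in 1 fit, Xist signal as a covariate or without the arrays with Xist signal. It was 0 with no filter on dim probes, the deposited value table or the letters as a replicate block, and ran from 0 to 3 when 1 array was left out. Keeping outlier spots or leaving out saturated probes, the latter chosen after seeing the data, gave 2. Over the 19 alternatives in heart limma called Hspa1a in 12, Dnaja1 in 3 and Dnajb1 in 1. Between the knockout tissues the count of 3 was 1 with normexp and ran from 1 to 2 when 1 array was left out, and for the heart effect minus the kidney effect it ran from 0 to 1. Centring moved all differences by -0.16 in heart, 0.05 in kidney, -0.13 between wild type and -0.34 between knockout tissues.

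Several differences that were not called changed sign. In heart Hspb1 ran from -0.26 to 0.34 over 19 alternatives (13 with the same sign), Hspd1 from -0.14 to 0.19 (14) and Hspe1 from -0.00034 to 0.47 (18). In kidney Hspa5 was at 0.12 with quantile normalization, and ran from -0.34 to 0.13 when 1 array was left out. Hspe1 was at 0.085 with quantile normalization, 0.21 without the arrays with Xist signal and with Xist as a covariate, 0.043 with the slide as a block and within the slide, and ran from -0.23 to 0.21 when 1 array was left out. Hsph1 was at -0.11 with the slide as a block and within the slide. Hspd1 was at 0.079 without saturated probes and ran from -0.33 to 0.011 when 1 array was left out, and Dnaja1 from -0.52 to 0.054. In knockouts, heart minus kidney, centring on the median gave -0.29 for Hspa8 and -0.32 for Hspa5, and leaving out 1 array gave -0.086 to 0.17 and -0.17 to 0.30. The cause was not tested.

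In kidney the letters did not pair the arrays (correlations of 0.082, -0.025 and -0.139). With the replicate block limma called 0 members there, 6 between the wild type tissues, 3 between the knockout tissues and 0 for the heart effect minus the kidney effect. The slide could not be fitted in heart, since no slide held both genotypes, or between the tissues, since within a genotype no slide held both. Saturation limits Hspd1 in kidney.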
